A study of Mus musculus with 6 samples.

Results

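The TEAD transcription factors and their Vestigial-like (VGLL) cofactors were read in Müllerian ducts of mouse embryos in which the Hippo kinases had been targeted. The members were the 7 genes Tead1, Tead2, Tead3, Tead4, Vgll2, Vgll3 and Vgll4, found by their symbol in the platform's gene table, among 19505 different symbols on the array. Each had 1 row, so no choice between rows was needed. Expression was measured at E17.5, when the duct is fully elongated, on 6 Affymetrix arrays, 1 for each embryo. The 3 control embryos were Lats1f/f,Lats2f/f, with floxed alleles of both kinases and no Cre. The 3 mutant embryos were Lats1f/f,Lats2f/f,Amhr2cre/+, with the same floxed alleles and Cre recombinase at 1 Amhr2 locus, so that Cre is made in cells that express the receptor of anti-Müllerian hormone. These are chiefly the mesenchyme around the duct, whereas the RNA came from the whole dissected duct, in which other cells keep the kinases. The labels do not give the sex of the embryos. In such bulk RNA, more cells of a type and more RNA per cell cannot be told apart.

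TEAD factors bind DNA at a short motif but activate transcription only weakly by themselves. The coactivators YAP and TAZ join them in the nucleus when the kinases LATS1 and LATS2 do not hold these coactivators in the cytoplasm by phosphorylation. VGLL proteins have no DNA-binding domain of their own and dock on TEAD factors through a Tondu motif. VGLL4, which has a pair of such motifs, competes with YAP for TEAD and is a repressor of TEAD targets, while VGLL2 is known for its part in skeletal muscle differentiation and VGLL3 as a cofactor in mesenchymal and muscle cells.

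The TEAD motif was sought in the promoters of the members themselves, since both its binders and its targets are described here. The motif was CATTCC, or GGAATG where read on the other strand, and the window was the 250 bases before each start in RefSeq on build GRCm38.p6. Windows were at hand for 5 of the 7 members (Tead2, Tead3, Vgll2, Vgll3 and Vgll4), and 3 of these, Tead3, Vgll3 and Vgll4, held the motif, against 14.4% of all 27025 genes with a window. A count over 5 genes, of which Tead3 had 3 windows, is too small to set the members apart from that share. The listed Hippo pathway components held it in 29.4% and other TEAD partners in 33.3% of genes with a window. The windows of Tead2 and Vgll2 did not hold these letters. The following 250 bases, each written 5′ to 3′ on the gene's strand with the motif in capitals, show the single match of Vgll3, the member that rose, the single match of Vgll4, and that of the outermost of the 3 starts of Tead3. Ankrd1, a YAP and TAZ target gene, is set beside them as an example with the motif, and was picked for holding it. Of the 5 genes whose signals were nearest to those of Vgll3 it was the 1 with a match, while Osmr, Prss23, Ccl12 and Plaur had none, and of the 15 YAP and TAZ target genes with a window 6 held the motif.
Vgll3, chr16:65814939-65815188, plus strand: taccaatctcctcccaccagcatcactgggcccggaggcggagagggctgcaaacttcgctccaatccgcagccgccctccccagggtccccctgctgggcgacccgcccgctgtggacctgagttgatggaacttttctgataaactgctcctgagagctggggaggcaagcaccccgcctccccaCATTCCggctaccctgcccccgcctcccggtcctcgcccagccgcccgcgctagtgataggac
Vgll4, chr6:114969204-114969453, minus strand: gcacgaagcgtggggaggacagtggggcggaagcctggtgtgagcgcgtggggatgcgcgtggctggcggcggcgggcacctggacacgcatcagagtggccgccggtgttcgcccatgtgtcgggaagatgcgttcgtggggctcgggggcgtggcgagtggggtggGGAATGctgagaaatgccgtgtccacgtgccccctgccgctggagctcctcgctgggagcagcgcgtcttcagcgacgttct
Tead3, chr17:28350806-28351055, minus strand: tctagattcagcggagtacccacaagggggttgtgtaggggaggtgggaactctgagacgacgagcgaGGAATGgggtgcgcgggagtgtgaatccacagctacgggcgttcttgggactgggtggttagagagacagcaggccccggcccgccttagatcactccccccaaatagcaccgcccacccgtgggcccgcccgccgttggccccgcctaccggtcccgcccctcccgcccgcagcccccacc
Ankrd1, chr19:36119845-36120094, minus strand: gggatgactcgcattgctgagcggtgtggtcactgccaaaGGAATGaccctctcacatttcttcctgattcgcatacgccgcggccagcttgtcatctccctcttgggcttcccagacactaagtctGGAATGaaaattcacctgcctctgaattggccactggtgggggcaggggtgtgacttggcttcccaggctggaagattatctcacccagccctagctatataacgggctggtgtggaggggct
The match lay 63 bases before the start of Vgll3, 82 before that of Vgll4 and 182 before the outermost start of Tead3, counted to the first base of the motif, and none of these overlapped another match. The next start of Tead3 had a pair of matches at 123 and 114 bases. Ankrd1 had matches at 210 and 123 bases. A match of 6 letters is a description of the sequence, and binding was not measured.

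Of the 7 members, Vgll3 rose, none fell and the other 6 did not pass the test. The test was limma's moderated test on the log2 signals of all 22206 transcript clusters, adjusted by the Benjamini-Hochberg method, with a threshold of 0.05. Over all transcript clusters 3.26% passed, 2.59% higher and 0.666% lower in mutant ducts, so 1 of 7 is a count too small to set the family apart from that background. The median log2 fold change of the members was 0.35, against -0.01 over all transcript clusters, but that median is the value of Tead4, whose signals were below background on all 6 arrays, so it says little of the family. The mutant arrays lay wholly above the control arrays for 3 members, Tead1, Vgll3 and Vgll4, as they did for 10.9% of all transcript clusters, and the groups overlapped for the other 4.

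**Figure D1:**
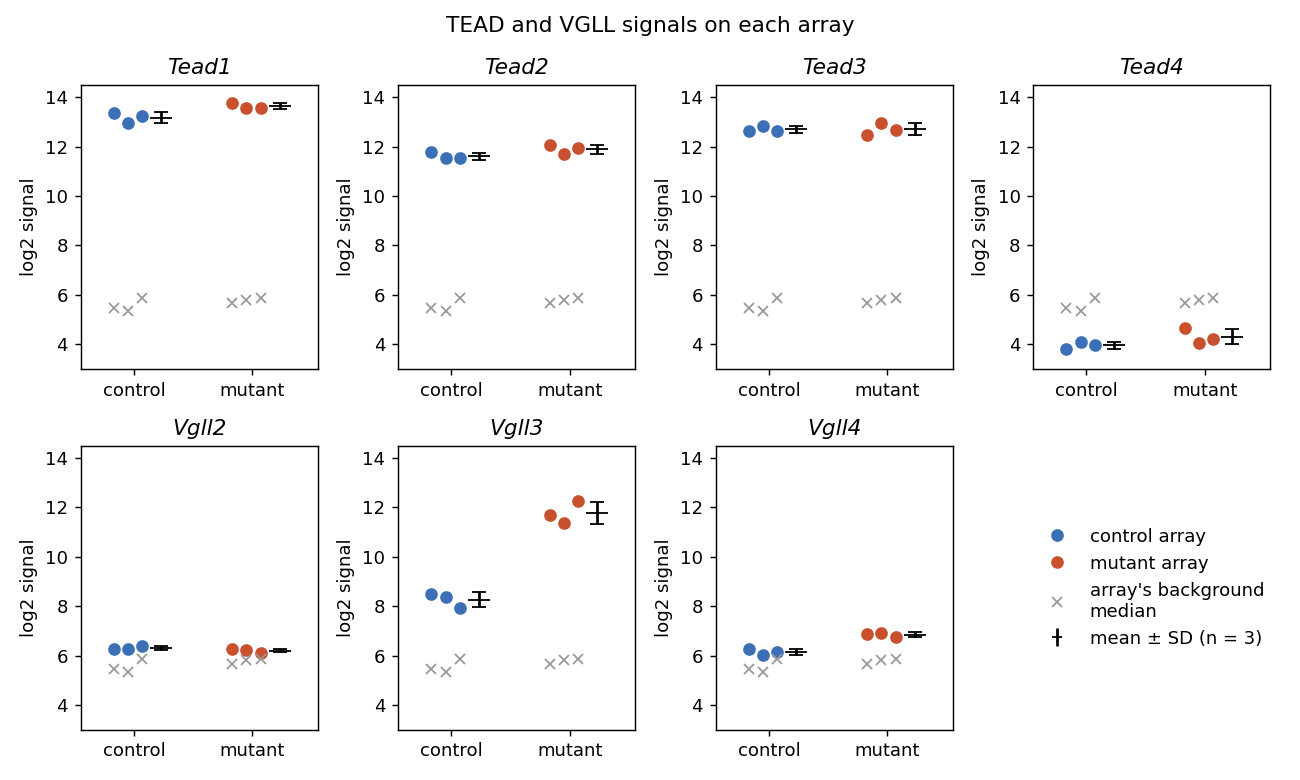
Log2 signal of each TEAD and VGLL gene (vertical axis) on the 3 control and 3 mutant arrays (points, in the order of replicate number), with the mean ± SD (n = 3) and each array's background median (crosses). Vgll3 moves from between 7.93 and 8.48 to between 11.35 and 12.26, Tead4 lies below background on all 6 arrays, and the group means of the other genes differ by at most 0.70.

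Among the DNA-binding factors, Tead1, Tead2 and Tead3 gave signals far above background on every array. Tead1, which is widely expressed and is needed for heart growth in the embryo, was at 13.36, 12.95 and 13.24 on the control arrays and at 13.77, 13.56 and 13.55 on the mutant arrays. Every mutant array was above every control array. The log2 fold change of 0.45 ± 0.18 (SE) had a limma adjusted p of 0.262 and a 95% interval from 0.05 to 0.84 before adjustment.

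Tead2, a factor of the early embryo, was at 11.78, 11.53 and 11.53 in controls and at 12.05, 11.70 and 11.93 in mutants. Control 1 lay above mutant 2, so the groups overlapped. Its log2 fold change was 0.28 ± 0.17 (limma adjusted p = 0.507), with an interval from -0.11 to 0.67.

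Tead3, a factor known from the placenta, was at 12.62, 12.85 and 12.64 in controls and at 12.48, 12.96 and 12.67 in mutants. The mutant arrays held both the lowest and the highest value, and both group means were 12.70, with an SD of 0.13 in controls and 0.24 in mutants (n = 3 each). The interval of its log2 fold change ran from -0.41 to 0.41, so a change of the size of that of Vgll3 lies far outside it.

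Tead4, which acts in the trophectoderm of the early embryo and in muscle, stood below the background median on all 6 arrays. Its signals were 3.79, 4.09 and 3.98 in controls and 4.65, 4.05 and 4.23 in mutants, with differences from the array's background between -1.88 and -1.02. A log2 fold change of 0.35 ± 0.20 (limma adjusted p = 0.451) between such signals is of little precision, and the array gives no level for this gene.

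The cofactor Vgll3 was higher in mutant ducts by 11.3-fold. It was at 8.48, 8.39 and 7.93 in controls (mean 8.27 ± 0.29, SD, n = 3) and at 11.69, 11.35 and 12.26 in mutants (mean 11.77 ± 0.46, SD, n = 3). The lowest mutant array was above the highest control array, and every signal was at least 2.08 above the array's background. Every signal of Vgll3 was also above the median of the negative-control rows. On the control arrays that median was 7.20 to 7.41, nearer to the signals than background was, so the size of the rise is less certain than its direction. The log2 fold change was 3.50 ± 0.26 (SE), with a limma adjusted p of 0.000188 and an interval from 2.92 to 4.07. Of the 22206 transcript clusters, 18 had a larger change in either direction and 21 a smaller p. Each of the 6 fits that left out 1 array also gave a called rise, from 3.25 without mutant 3 to 3.71 without mutant 2 (limma adjusted p up to 0.00160).

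Vgll4, the repressive cofactor, was at 6.28, 6.01 and 6.15 in controls and at 6.89, 6.92 and 6.75 in mutants. The groups did not overlap, and their SDs were small, 0.13 and 0.09 (n = 3 each). The log2 fold change of 0.70 ± 0.16 (SE), or 1.63-fold, had a limma adjusted p of 0.0508 and an interval from 0.34 to 1.07, and so missed the threshold narrowly. It passed in 5 of the 8 alternatives that kept all arrays, with adjusted p between 0.0365 and 0.0497, and it did not pass when any 1 array was left out (adjusted p from 0.0901 to 0.168). Its signal was at most 1.22 above background and lay below the median of the negative-control rows on all 6 arrays, so the size of the difference is uncertain.

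Vgll2, the cofactor of skeletal muscle, was at 6.25, 6.28 and 6.38 in controls and at 6.26, 6.21 and 6.12 in mutants. The groups overlapped, with mutant 3 the lowest array and control 3 the highest. Its log2 fold change was -0.11 ± 0.15 (limma adjusted p = 0.801), with an interval from -0.46 to 0.24. These signals were between 0.24 and 0.93 above background and, as for Vgll4, below the negative-control median on every array. Of 12 skeletal muscle markers none passed the test, and 6 were below background on all arrays, among them Myod1, which specifies muscle cells.

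**Figure D2:**
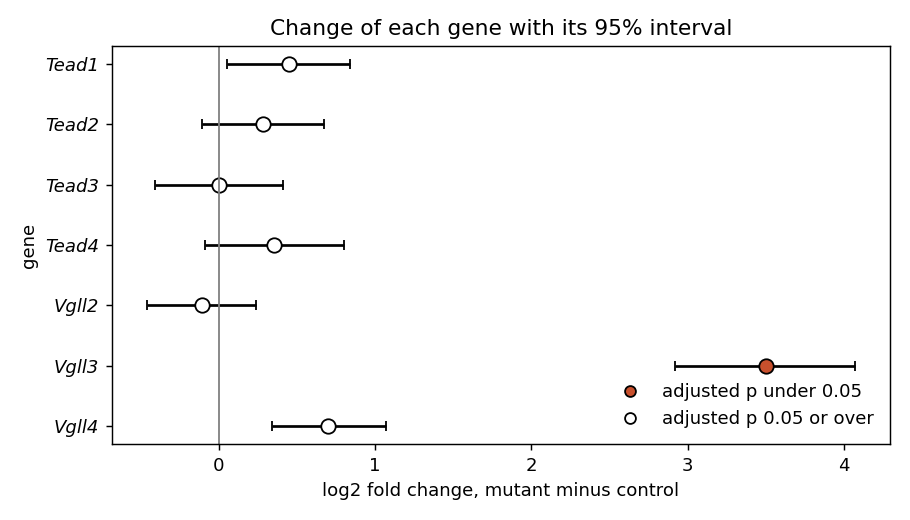
Log2 fold change of each gene, mutant minus control (horizontal axis), with its 95% interval from limma (bars) over 3 arrays a group. The interval of Vgll3, from 2.92 to 4.07, lies above those of all the other genes, and those of Tead2, Tead3, Tead4 and Vgll2 include 0.

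Signals of other cells were read beside these values. Control 3 stood apart from the other control arrays on the second principal component, with urothelial Upk2 at 12.21 against at most 4.16 elsewhere and smooth muscle Myh11 at 12.58 against at most 8.04. The mean deviation of the 8 smooth muscle markers was -1.63, -0.41 and 1.52 on controls 1, 2 and 3, so controls 1 and 2 differed as well. Not every marker of that list was highest on control 3: Tagln was at 12.62 there and at 12.76 on control 2. Without control 3, the log2 fold change was 3.33 for Vgll3 (limma adjusted p = 0.000443), 0.71 for Vgll4, 0.48 for Tead1, 0.37 for Tead4, 0.24 for Tead2, -0.03 for Tead3 and -0.07 for Vgll2. Of the 7 measured macrophage markers, 6 rose and none fell, while 2.59% of all transcript clusters rose. The summed linear signal of these 7 markers was 4890 to 5760 in control and 13000 to 15400 in mutant ducts, and none was below background on all arrays. Mutant 3 was the highest array both for the mean of these markers, 0.80 above their average, and for Vgll3. The part of macrophages in the rise of Vgll3 was not tested. The mesenchyme markers had 1 rise, Pdgfrb, and 1 fall, Amhr2, in 10 measured. Their summed signal, which the brightest markers lead, was 149000 to 174000 in controls and 132000 to 162000 in mutants. Their median log2 fold change was -0.27. Mutant arrays lay wholly below control arrays for 3 of the 10 and wholly above for 2. Over all 22206 transcript clusters these counts were 2264 and 2421. Amhr2 had a log2 fold change of -3.73 ± 0.25 (SE), or 13.3-fold lower in mutants. Mutants alone carry Cre at 1 Amhr2 locus. The parts of that allele and of a change of the mesenchyme in this fall were not tested. Of 9 markers of Müllerian epithelium 8 were above background on some array, and 1, Lhx1, passed as higher in mutants at a signal below background. Kdr alone rose among 6 endothelial and Tagln alone among 8 smooth muscle markers, while none of 6 urothelial or 8 ovary markers passed. Among the listed markers, those named here were picked out by their values.

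The genes whose signals were nearest to those of Vgll3 were found by the root mean square difference over the 6 arrays, after each row was centred on its own mean. In order they were Osmr, a receptor subunit for oncostatin M, with a difference of 0.29, the secreted serine protease Prss23 with 0.31, the chemokine Ccl12 with 0.33, the urokinase receptor Plaur with 0.38 and Ankrd1, a nuclear ankyrin repeat protein, with 0.40. Osmr was at 6.58, 6.36 and 6.41 in controls and at 10.58, 9.75 and 10.66 in mutants. As with Vgll3, its lowest mutant array was mutant 2 and its highest was mutant 3. Prss23 was at 11.21, 10.76 and 10.76 in controls and at 14.26, 14.13 and 14.20 in mutants, with almost no spread among mutants (SD 0.07). Ankrd1, which is on the list of YAP and TAZ targets, was at 6.52, 7.12 and 5.90 in controls and at 10.68, 9.43 and 10.24 in mutants. All 5 rose, with log2 fold changes from 3.29 to 3.88, which the choice by likeness to Vgll3 entails. On every control array Osmr, Ccl12, Plaur and Ankrd1 lay below the negative-control median, which was 7.20 to 7.41 there. The size of these changes is therefore uncertain. The likeness is a description of 6 arrays that fall into the genotypes, and no test was made of it.

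**Figure D3:**
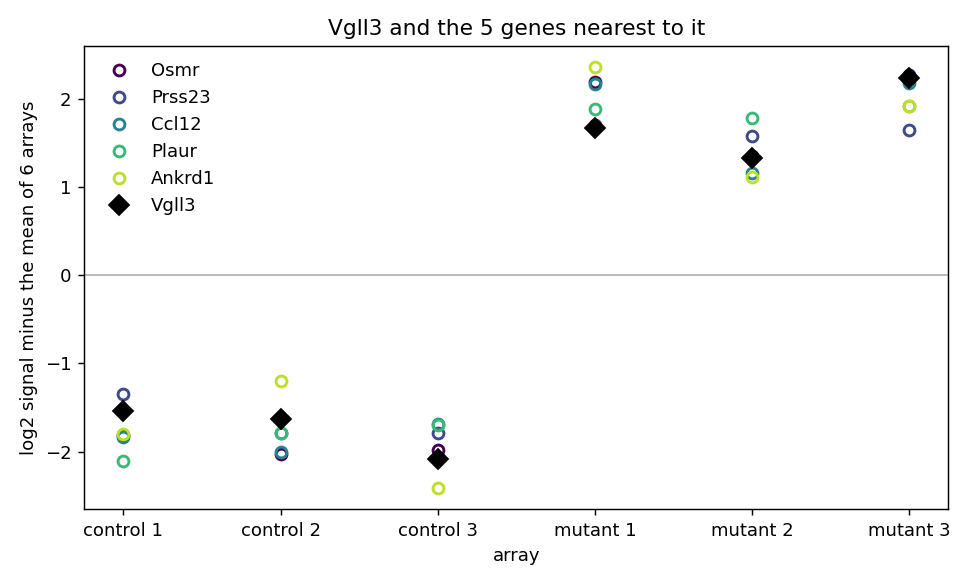
Log2 signal minus the gene's mean over 6 arrays (vertical axis) on each array (horizontal axis) for Vgll3 (diamonds) and the 5 genes nearest to it (circles). All 6 genes lie below their mean on the 3 control arrays and above it on the 3 mutant arrays, with root mean square differences from Vgll3 of 0.29 to 0.40.

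The partners and targets of the TEAD factors came from lists, which are described by their counts. Of 17 measured Hippo pathway components upstream of TEAD, 2 rose and none fell, with a median log2 fold change of 0.16. Over all transcript clusters 2.59% rose and 0.666% fell. The 2 components that rose were Wwtr1, which encodes TAZ, with 0.99 ± 0.20 (limma adjusted p = 0.0288), and Wwc2, a scaffold that stimulates LATS activity, with 1.44 ± 0.18 (limma adjusted p = 0.00260). Yap1, the other coactivator of TEAD, was at 10.93, 10.44 and 10.47 in controls and at 10.34, 10.37 and 10.37 in mutants, a log2 fold change of -0.25 ± 0.18 that did not pass. The count was 1 without control 1, control 3, mutant 1 or mutant 3. It was 5, of which 2 were falls, with rows under the median signal left out or with a variance prior that followed the signal. Lats1, a target of the Cre, had a log2 fold change of -0.78 (limma adjusted p = 0.0958), and Lats2 one of 0.22. The deletion was not checked by these values, because the position of the probes against the exons that Cre removes was not known.

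Among 22 target genes of YAP and TAZ with TEAD, 10 rose and none fell, against the 2.59% of all transcript clusters that rose, and the median of the 22 was 0.61. The list was chosen with earlier results of these data known, so this is not an independent comparison. The smallest p were those of Ccn2 (3.76 ± 0.22) and Ccn1 (4.18 ± 0.26), secreted matricellular proteins, Crim1 (2.31 ± 0.17), a transmembrane protein that binds BMPs, and Amotl2 (2.83 ± 0.23), a scaffold that binds YAP. The interval of Vgll3 on the log2 scale overlapped those of Ankrd1, from 2.78 to 4.43, Ccn1, from 3.61 to 4.76, and Ccn2, from 3.26 to 4.25, and differences between these changes were not tested. None of 9 other reported partners of TEAD passed, and 1 of them, Vgll1, the remaining gene of the VGLL family, was below background on all arrays. At an unadjusted p under 0.05 there was 1 of the 9, the muscle and vessel factor Mef2c with a log2 fold change of 0.51, which was picked out for that value. The 22 targets, the Hippo components and the members share Lats2 in 2 lists and no other gene.

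**Figure D4:**
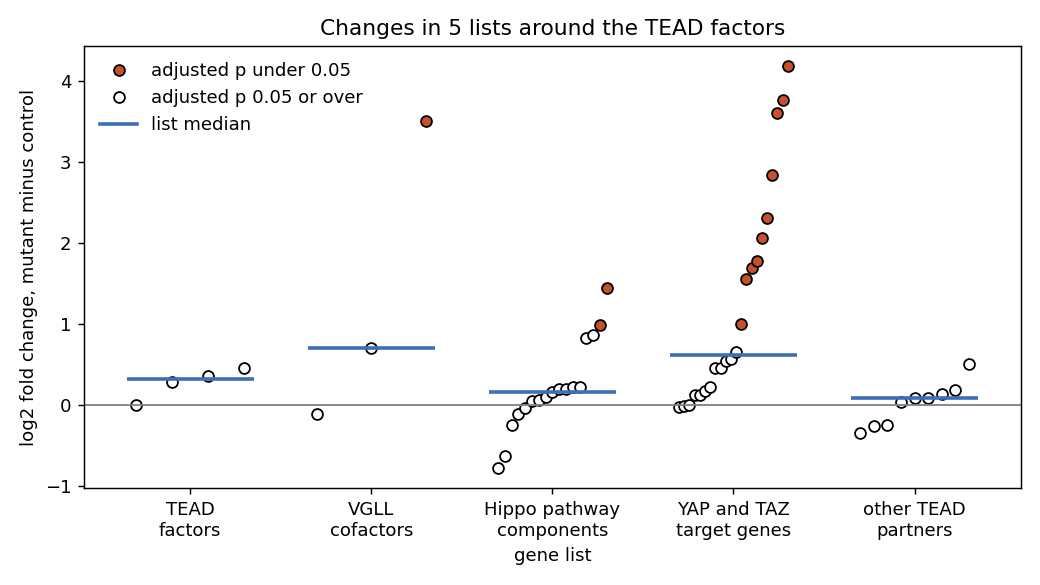
Log2 fold change, mutant minus control (vertical axis), of each measured gene in 5 lists (horizontal axis, genes sorted within a list), with filled points past the threshold and a line at the list's median. The medians are 0.32 for the TEAD factors (between the values of Tead2 and of Tead4, which was below background), 0.70 for the VGLL cofactors, 0.16 for the Hippo components, 0.61 for the targets and 0.09 for the other partners, and 10 of the 22 targets are filled.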

How the data were processed

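Total RNA from the ducts of 6 embryos was hybridised to 1 Affymetrix array each, and the authors deposited 1 table of log2 signals per transcript cluster. The table was made with Transcriptome Analysis Console 4.0, per the submitters' processing notes, and the summarisation and normalization methods are not given in the sources used here. Values were used as deposited. Of 28846 rows, 22206 transcript clusters were tested and the control rows left out. The median of 23 antigenomic probes, from 5.35 to 5.88, was each array's background, while 5222 negative-control rows had medians from 7.09 to 7.41. Symbols came from the platform's table, which names 19572 tested rows. Groups were taken from the titles. Genotype was the single term of a limma 3.58.1 model (R 4.3.3; lmFit, then eBayes), tested two-sided with adjustment over all rows. Stk3, Pdgfra and Cd68, which the lists hold, are not analysed here.

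The members, lists, tests and alternatives were chosen with earlier results of these data known. Named were the 7 members, the Lats, Amhr2, Yap1 and Wwtr1 genes, up to 4 called genes of each pathway list with the smallest p, and the 5 genes nearest to each called member among named genes with a mean above background. Alternatives covered scaling, filters, the prior, array weights, a block for the replicate number, the threshold, rows of a gene and each array left out. The fit was also run on simulated data of 22206 rows, of which 200 were changed. It recovered 35% of changes of 1 and 87% of changes of 2 on the log2 scale. None of these had the wrong sign, and 4 unchanged rows were called. The simulated noise was independent between rows, without a shift shared by many rows of an array. On the real arrays 723 rows were called, so the simulated shares need not hold for them. The number of arrays limits the precision. Promoter sequences were read from RefSeq, build GRCm38.p6. Figures were drawn with matplotlib 3.10.9.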

Additional observations from a re-analysis of the deposited data

How the results depend on the processing

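The rise of Vgll3 was called under all 15 alternatives tried for it, with log2 fold changes from 3.25 to 3.71. Tead1, Tead2, Tead4 and Vgll2 kept their direction and did not pass wherever they were fitted. Vgll4 passed with quantile normalization (0.71), with a common median (0.72), without rows under the 25th percentile (0.70), with array weights (0.69) and with rows of 1 symbol only (0.70), and 2 members were then called. It ranged from 0.64 to 0.77 with 1 array left out. The difference of Tead3, at 0, turned to 0.02 with a common median, and ran from -0.13 to 0.11 with 1 array left out. Called Hippo components numbered 5 without rows under the median or with the trended robust prior, 1 with the replicate block or at an adjusted p of 0.01, and 1 to 2 with 1 array left out. Over all rows 299 passed at 0.01, and 360 to 697 with 1 array left out: 384 without control 1, 454 without control 2 and 360 without mutant 1. The cause was not tested. With the replicate number as a block, Vgll3 stayed at 3.50 (limma adjusted p = 0.00103) and Vgll4 at 0.70 (0.104). Same-numbered arrays deviated from their group means with correlations of 0.01, 0.04 and 0.00, and differently numbered arrays with -0.04 to 0.03. With 3 arrays a group, these values cannot decide whether the numbers pair the samples. Tead4, Vgll2 and Vgll4 were among the rows that a filter on dim rows removed, Tead4 under both filters, and had no value there. Signals near or under background limit what can be said of these 3 genes.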
